A study of Mus musculus with 16 samples.

Results

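The HoxB cluster is the row of Hoxb homeobox genes on mouse chromosome 11, and its 10 genes on the array, Hoxb1 to Hoxb9 and Hoxb13, were followed across a control and a Sirt1 knockdown with and without retinoic acid. Every probe that the scanner files name Hoxb1 to Hoxb13 was taken, which gave 14 probes on 23 spots out of 41174 probes for 27962 gene names. RNA came from the mouse embryonic stem cell line E14, whose cells stably carried a lentiviral short hairpin RNA, either against Sirt1 (sh-SIRT1) or a control hairpin (sh-Control). Sirt1 codes for an NAD-dependent protein deacetylase. Cells of either kind received 20 nM retinoic acid (RA) or the vehicle, ethanol, for 2 days, in all groups in serum medium with leukemia inhibitory factor, the cytokine that holds such cells undifferentiated. The groups were RA-treated sh-SIRT1 cells (6 arrays), RA-treated sh-Control cells (4 arrays), vehicle-treated sh-SIRT1 cells (3 arrays) and vehicle-treated sh-Control cells (3 arrays), each array being a 1-colour Agilent whole-genome array hybridised with Cy3-labelled RNA. The labels name 1 hairpin against Sirt1, so that a property of that hairpin or line and the loss of Sirt1 cannot be told apart. The study's design speaks of pairs of cells with duplicates without saying which arrays are duplicates, so p-values reflect array-to-array spread only, part of which may be technical.

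Hox proteins bind DNA through a homeodomain and give cells their position along the head-to-tail axis. Genes of a cluster lie in the order in which they are switched on in the embryo, the 3' end (Hoxb1) early and toward the head, the 5' end (Hoxb13) late and toward the tail. RA binds nuclear receptors (RAR with RXR) that occupy response elements within and around the Hox clusters, and the 3' genes of a cluster are its best known direct targets in embryonic stem cells.

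The probes lay in cluster order on the forward strand of chromosome 11 in the mm7 coordinates of the scanner files, with the exception of 1 Hoxb2 probe listed on the reverse strand. The Hoxb1 probe, at chr11:96476175-96476235, marked the 3' end. The Hoxb5 probe lay 61.3 kb from it, the farther Hoxb9 probe 91.4 kb and the Hoxb13 probe, at chr11:96304167-96304226, 172 kb. No annotation of that build was used here, so exon and untranslated-region positions are not given for the probes. The Hoxb3 probe lay at chr11:96454839-96454898 and the Hoxb4 probe at chr11:96429246-96429305.
Probes are shown by 30 bases where results turn on them, namely the Hoxb1 probe and the 2 probes named Hoxb6, which did not move together. The first Hoxb6 probe below (A_51_P232207) lies at chr11:96410288-96410347 and the other (A_52_P648750, designed on another Hoxb6 entry) at chr11:96408006-96408065.
Hoxb1 probe: ttgaattgaacttcctaagtaactgggctt
Hoxb6 probe A_51_P232207: tcgagtctcatttcgtccatgtcccccgtg
Hoxb6 probe A_52_P648750: ggtgctatttgacaattcctgcctctgcca

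RefSeq promoters of build GRCm38.p6 were at hand for 3 of the 10 genes, Hoxb1, Hoxb4 and Hoxb8, and are shown because the first of these was at background without RA, Hoxb4 was read at or near background without RA, and Hoxb8 stayed at background throughout. Each line gives the 250 bases before the start, on the forward strand of chromosome 11, with motif matches in capitals. The motifs searched on both strands were the RAR core AGGTCA, direct repeats of that core with 2 or with 5 bases between, the Hox-Pbx site TGATNNAT, the Cdx site TTTATG and the TATA box TATAAA.
Hoxb1 promoter (chr11:96365508-96365757): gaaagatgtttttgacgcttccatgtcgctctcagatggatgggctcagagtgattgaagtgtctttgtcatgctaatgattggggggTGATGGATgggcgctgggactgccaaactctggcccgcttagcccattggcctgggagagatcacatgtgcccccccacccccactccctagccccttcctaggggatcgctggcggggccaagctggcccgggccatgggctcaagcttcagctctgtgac
Hoxb4 promoter (chr11:96318017-96318266): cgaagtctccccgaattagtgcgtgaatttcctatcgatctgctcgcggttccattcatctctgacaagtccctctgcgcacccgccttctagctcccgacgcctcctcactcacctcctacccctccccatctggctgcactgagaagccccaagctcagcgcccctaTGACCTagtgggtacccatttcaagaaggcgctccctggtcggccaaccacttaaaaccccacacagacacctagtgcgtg
Hoxb8 promoter (chr11:96281655-96281904): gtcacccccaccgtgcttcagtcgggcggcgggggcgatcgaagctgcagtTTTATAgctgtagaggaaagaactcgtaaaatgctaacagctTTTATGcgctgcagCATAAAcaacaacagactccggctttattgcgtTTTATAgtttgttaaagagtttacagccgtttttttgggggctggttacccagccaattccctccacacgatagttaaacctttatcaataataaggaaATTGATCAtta
The Hoxb1 window held 1 match, to the Hox-Pbx letters, 162 bases before the start. In the Hoxb4 window the only match was 1 RAR core on the reverse strand, 81 bases before the start. The Hoxb8 window held 2 TATA matches, 2 Cdx matches and 1 Hox-Pbx match. Of 32851 promoter windows of the same length, 14% held the RAR core, 7.68% the Hox-Pbx letters, 10.8% the Cdx letters and 12.4% the TATA letters, and either direct repeat occurred in 0.00913%. These matches describe the letters in the window and nothing about binding.

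All levels below are log2 of the processed signal after subtraction of the array's own 75th percentile, so 0 is that percentile and a step of 1 is a 2-fold change in signal. Levels of different probes are not compared, since probes differ in brightness. A probe counts as well above background where the scanner software marked it so, and the dimmest probes so marked on an array lay between -6.20 and -5.25. The 75th percentile ranged from 684 to 1155 intensity units over the 16 arrays, and 60% to 67.9% of probes were well above background. Sirt1 itself averaged 1.18 ± 0.26 (SD, n = 6) in RA-treated sh-SIRT1 cells and 3.36 ± 0.08 (n = 4) in RA-treated sh-Control cells, and 1.85 ± 0.03 (n = 3) in vehicle-treated sh-SIRT1 cells and 3.66 ± 0.17 (n = 3) in vehicle-treated sh-Control cells. Markers of embryonic stem cells (Pou5f1, Nanog, Sox2 and others) were well above background on all arrays for 9 of 9 measured genes. RA-treated sh-Control arrays 2, 3 and 4 stood apart from every other array in Y-linked genes, with a mean level over 3 such genes of -5.85, -6.16 and -6.10, against -0.96 on array 1 of that group and -1.29 to -0.10 on the 12 other arrays. Results of HoxB probes, and of the regulators, Hox genes and neighbours named below, that rest on that group were therefore also fitted with array 1 alone, assumed to vary like the others, and values are given where a named call was lost or gained; the marker lists were not fitted in this way. Arrays within a group also differed in closeness over all probes. RA-treated sh-SIRT1 arrays 1 and 2 differed with an SD of 0.318 and arrays 3 to 6 by 0.264 to 0.348. Arrays 1 and 2 of that group differed from arrays 3 to 6 by 0.515 to 0.592. RA-treated sh-Control arrays 3 and 4 differed by 0.213, but arrays 1 and 2 by 0.614. Arrays 1 and 2 there differed from arrays 3 and 4 by 0.629 to 0.711. With vehicle, array 1 differed from arrays 2 and 3 by 0.506 and 0.498 in sh-SIRT1 cells and by 0.519 and 0.542 in sh-Control cells. Vehicle arrays 2 and 3 differed by 0.287 and 0.313 in the same order.

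RA raised 9 of the 10 genes, all but Hoxb8, by at least 1 probe with either hairpin. Of the 14 probes, 12 were well above background on all arrays of RA-treated sh-SIRT1 cells and the same number in RA-treated sh-Control cells, against 6 in vehicle-treated sh-SIRT1 cells and 4 in vehicle-treated sh-Control cells. These 12 probes, for 9 genes, entered the tests, and Hoxb8 did not. With RA, 11 of the 12 rose in sh-SIRT1 cells and the same 11 in sh-Control cells (limma, adjusted p under 0.05 over 26373 probes), and in all 11 every RA array lay above every vehicle array of its hairpin. None of the 12 fell. The probes of Hoxb1, Hoxb2 (both), Hoxb3 and Hoxb5 and Hoxb6 probe A_51_P232207 passed the filter on dim probes through the RA groups alone, so they had to be higher with RA, and their rise and separation are a description; the 5 other called probes were those of Hoxb4, Hoxb7, Hoxb9 (both) and Hoxb13. Over all probes, 22.1% were called higher, 36.0% lower and 58.1% in either direction with RA in sh-SIRT1 cells, and 19.1%, 26.4% and 45.6% in sh-Control cells. All RA arrays lay above all vehicle arrays in 21.7% of probes and below them in 35.9% in sh-SIRT1 cells, and in 18.8% and 27.9% in sh-Control cells. The median log2 difference over the 12 HoxB probes was 4.36 in sh-SIRT1 cells and 3.60 in sh-Control cells, beside -0.15 and -0.13 over all probes. The 2 RA comparisons use different arrays. In these bulk samples, more cells expressing a gene and more RNA per cell cannot be told apart.

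**Figure D1:**
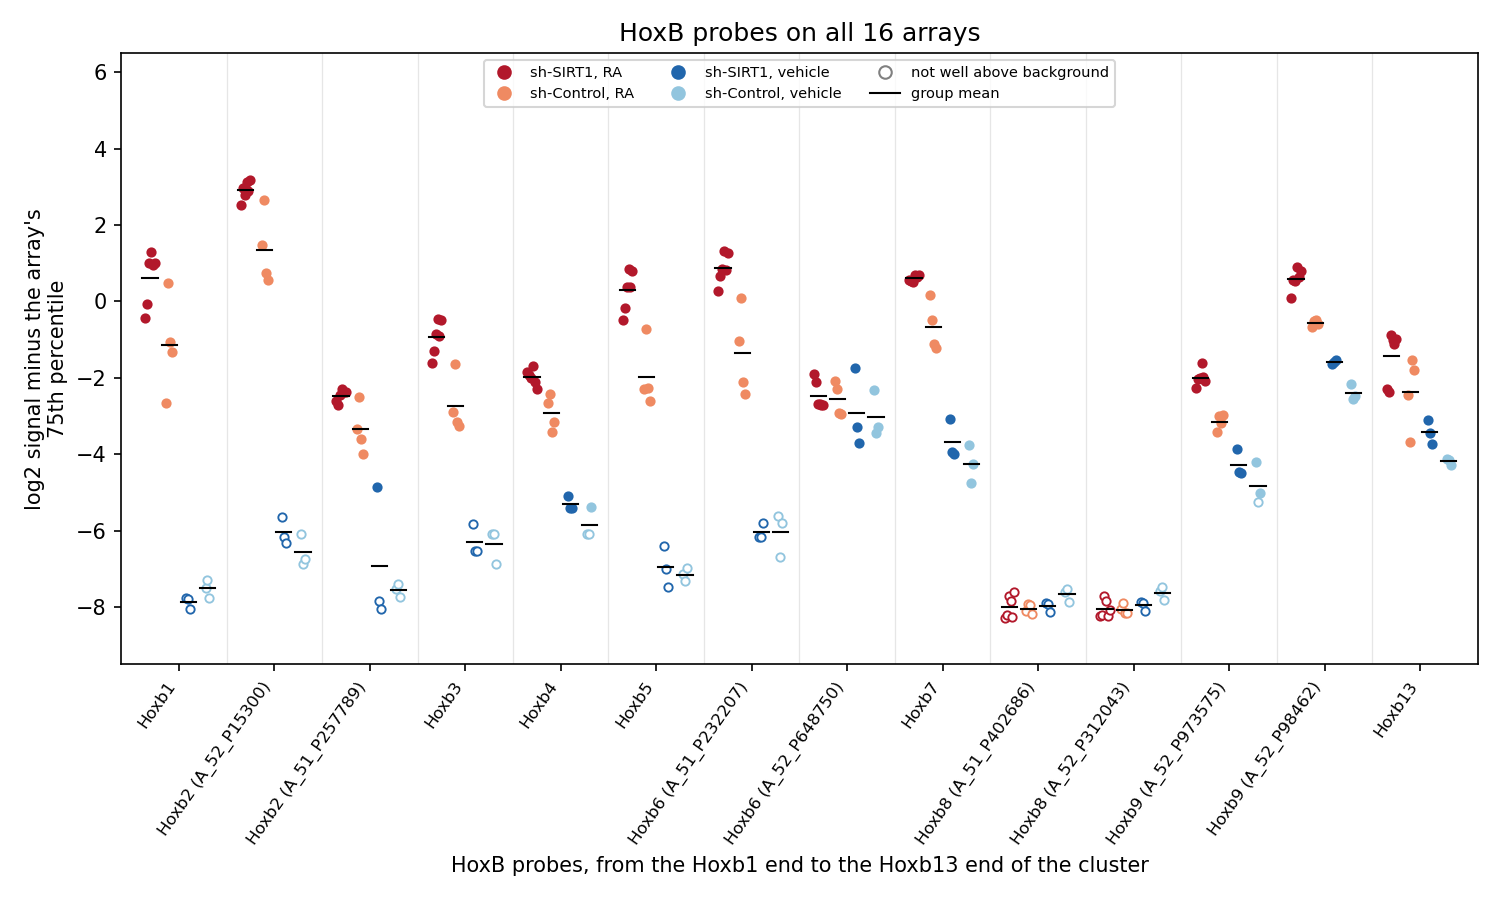
Level of each HoxB probe on each array (log2 signal minus the array's 75th percentile), in cluster order from Hoxb1 to Hoxb13, with RA-treated sh-SIRT1 and sh-Control arrays left of vehicle-treated ones; filled points are well above background and open points are not. RA arrays sit above vehicle arrays for 11 of the 12 tested probes, 1 Hoxb6 probe does not separate, and Hoxb8 is open on all 16 arrays.

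Hoxb1, which sets the identity of a hindbrain segment and is a classic RA target, had no measurable signal without RA. Its probe, on 10 spots of each array, read -0.43 at the lowest, 0.97 at the median and 1.30 at the highest on the 6 RA-treated sh-SIRT1 arrays. On the RA-treated sh-Control arrays it read -2.67, 0.48, -1.06 and -1.34, on the vehicle-treated sh-SIRT1 arrays -7.77, -7.80 and -8.05, and on the vehicle-treated sh-Control arrays -7.50, -7.28 and -7.76. Every RA array was far above every vehicle array, and none of the 6 vehicle arrays was well above background. Hoxb1 was at least 79.8-fold higher with RA in sh-SIRT1 cells (limma adjusted p = 2.04e-08) and at least 19.2-fold higher in sh-Control cells (adjusted p = 1.06e-06). Such a bound sets the mean with RA against the higher of the probe's own signal and the dimmest signal called well above background on each vehicle array. On the RA arrays the SD between the 10 spots was 0.02 to 0.09, well under the spread between arrays.

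Hoxb2, which acts in the neighbouring hindbrain segments and in mouse is driven by Egr2 and Hoxb1, also had no measurable signal without RA by its forward-strand probe. Its forward-strand probe read from 2.53 to 3.18 with a median of 2.93 on RA-treated sh-SIRT1 arrays and 1.47, 2.65, 0.74 and 0.56 on RA-treated sh-Control arrays. Without RA it read -5.64, -6.16 and -6.33 in sh-SIRT1 cells and -6.08, -6.86 and -6.75 in sh-Control cells, none well above background. It was at least 390-fold higher with RA in sh-SIRT1 cells (limma adjusted p = 7.49e-10) and at least 109-fold higher in sh-Control cells (adjusted p = 8.52e-09). The other probe named Hoxb2 (A_51_P257789), listed on the reverse strand and designed on a cDNA, read -2.71 to -2.29 on RA-treated sh-SIRT1 arrays and -3.33, -2.50, -3.60 and -3.99 on RA-treated sh-Control arrays. It was well above background on 1 of the 6 vehicle arrays, vehicle-treated sh-SIRT1 array 1, at -4.86, with the other 2 sh-SIRT1 arrays at -7.85 and -8.04 and the 3 sh-Control arrays from -7.74 to -7.41. Its fitted difference with RA in sh-SIRT1 cells, 4.45 ± 0.52 (log2, SE, limma adjusted p = 7.47e-06), rests on vehicle arrays mostly at background and was 5.48 without vehicle-treated sh-SIRT1 array 1. In sh-Control cells it was higher by at least 4.16-fold (limma adjusted p = 4.79e-05).

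Hoxb3, a gene of the posterior hindbrain, likewise did not pass background on the vehicle arrays. It read -1.61 at the lowest, -0.89 at the median and -0.45 at the highest on RA-treated sh-SIRT1 arrays, and -2.89, -1.63, -3.16 and -3.27 on RA-treated sh-Control arrays. On the vehicle arrays it read -5.83, -6.54 and -6.53 in sh-SIRT1 cells and -6.08, -6.10 and -6.88 in sh-Control cells. It was at least 27-fold higher with RA in sh-SIRT1 cells (limma adjusted p = 3.89e-08) and at least 6.37-fold higher in sh-Control cells (adjusted p = 5.52e-06). Hoxb4, whose expression begins at the lower hindbrain and which can expand blood progenitors in culture, was faint but often measurable before RA, on 3 of 3 vehicle-treated sh-SIRT1 arrays and 1 of 3 vehicle-treated sh-Control arrays. It read -2.29 to -1.68 with a median of -1.97 on RA-treated sh-SIRT1 arrays and -2.67, -2.43, -3.41 and -3.16 on RA-treated sh-Control arrays. Without RA it read -5.09, -5.41 and -5.41 in sh-SIRT1 cells and -6.08, -6.08 and -5.40 in sh-Control cells. The rise with RA was 3.32 ± 0.21 in sh-SIRT1 cells (limma adjusted p = 3.04e-08) and 2.93 ± 0.23 in sh-Control cells (adjusted p = 3.64e-07).

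In the middle of the cluster, Hoxb5, which helps place the shoulder girdle, went the same way. It read -0.48 at the lowest, 0.38 at the median and 0.84 at the highest on RA-treated sh-SIRT1 arrays and -2.30, -0.72, -2.28 and -2.62 on RA-treated sh-Control arrays. Its vehicle levels, none well above background, were -6.40, -7.01 and -7.49 in sh-SIRT1 cells and -7.15, -7.33 and -6.98 in sh-Control cells. Hoxb5 was at least 63.4-fold higher with RA in sh-SIRT1 cells (limma adjusted p = 7.51e-09) and at least 10.8-fold higher in sh-Control cells (adjusted p = 4.84e-07).

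Hoxb6, a trunk gene of the lateral plate, gave 2 answers. Probe A_51_P232207 read 0.28 to 1.30 with a median of 0.83 on RA-treated sh-SIRT1 arrays and -1.03, 0.10, -2.11 and -2.41 on RA-treated sh-Control arrays, and was at background on all 6 vehicle arrays, with -6.17, -6.16 and -5.81 in sh-SIRT1 cells and -5.63, -6.68 and -5.81 in sh-Control cells. By this probe Hoxb6 was at least 93.7-fold higher with RA in sh-SIRT1 cells (limma adjusted p = 2.76e-08) and at least 16.5-fold higher in sh-Control cells (adjusted p = 3.61e-06). Hoxb6 probe A_52_P648750, on the same strand, was well above background on all 16 arrays and overlapped between treatments: it read -2.72 to -1.89 on RA-treated sh-SIRT1 arrays, -2.95 to -2.09 on RA-treated sh-Control arrays, -3.71 to -1.76 on vehicle-treated sh-SIRT1 arrays and -3.46 to -2.33 on vehicle-treated sh-Control arrays. Its RA difference was 0.45 ± 0.38 in sh-SIRT1 cells (limma adjusted p = 0.328) and 0.47 ± 0.41 in sh-Control cells (adjusted p = 0.372). It was called in sh-SIRT1 cells without vehicle-treated sh-SIRT1 array 1, at 1.03 (adjusted p = 0.0188), and with a replicate block across treatments, at 0.69 (adjusted p = 0.0416).

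Hoxb7, another trunk gene, was measurable on all 16 arrays. It read 0.51 to 0.69 with a median of 0.59 on RA-treated sh-SIRT1 arrays and 0.16, -0.49, -1.12 and -1.23 on RA-treated sh-Control arrays. Without RA it read -3.09, -3.94 and -4.00 in sh-SIRT1 cells and -3.75, -4.76 and -4.26 in sh-Control cells. The rise with RA was 4.28 ± 0.29 in sh-SIRT1 cells (limma adjusted p = 4.79e-08) and 3.58 ± 0.31 in sh-Control cells (adjusted p = 9.55e-07), which is 19.4-fold and 12-fold. The 6 RA-treated sh-SIRT1 arrays lay close together and above all 4 RA-treated sh-Control arrays, which were spread wider.

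Hoxb8, which in mouse also marks myeloid progenitors, was the exception between Hoxb7 and Hoxb9. Neither of its 2 probes was well above background on any of the 16 arrays. Probe A_51_P402686 read -8.28 to -7.61 on RA-treated sh-SIRT1 arrays, -8.18 to -7.91 on RA-treated sh-Control arrays, -8.13 to -7.90 on vehicle-treated sh-SIRT1 arrays and -7.87 to -7.52 on vehicle-treated sh-Control arrays. The other Hoxb8 probe, A_52_P312043, read -8.25 to -7.71, -8.17 to -7.88, -8.10 to -7.87 and -7.81 to -7.48 in the same groups. These values give no order between groups, and a level under the detection limit of the probes is all they show.

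Hoxb9, which patterns the ribs of the thorax, was already expressed without RA, and both of its probes rose. Probe A_52_P98462 read 0.09 to 0.89 with a median of 0.60 on RA-treated sh-SIRT1 arrays and -0.68, -0.52, -0.48 and -0.58 on RA-treated sh-Control arrays. Without RA it read -1.64, -1.59 and -1.54 in sh-SIRT1 cells and -2.17, -2.57 and -2.47 in sh-Control cells. The 4 groups did not overlap and stood in that order from high to low. RA raised it by 2.17 ± 0.14 in sh-SIRT1 cells (limma adjusted p = 3.87e-08, 4.51-fold) and 1.84 ± 0.15 in sh-Control cells (adjusted p = 6.57e-07, 3.57-fold). Probe A_52_P973575 of Hoxb9 rose by 2.28 ± 0.22 (limma adjusted p = 1.07e-06) in sh-SIRT1 cells and 1.68 ± 0.23 (adjusted p = 6.07e-05) in sh-Control cells.

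Hoxb13, set apart at the 5' end and known from the tail bud and the prostate, was measurable on all 16 arrays. It read -2.36 at the lowest, -1.06 at the median and -0.88 at the highest on RA-treated sh-SIRT1 arrays and -2.44, -3.68, -1.54 and -1.79 on RA-treated sh-Control arrays. The vehicle arrays read -3.10, -3.46 and -3.74 in sh-SIRT1 cells and -4.12, -4.14 and -4.29 in sh-Control cells. RA raised it by 1.99 ± 0.44 (limma adjusted p = 0.00138) in sh-SIRT1 cells and 1.82 ± 0.47 (adjusted p = 0.00639) in sh-Control cells. RA-treated sh-SIRT1 arrays 1 and 2 read -2.30 and -2.36, with arrays 3 to 6 between -1.10 and -0.88.

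**Figure D2:**
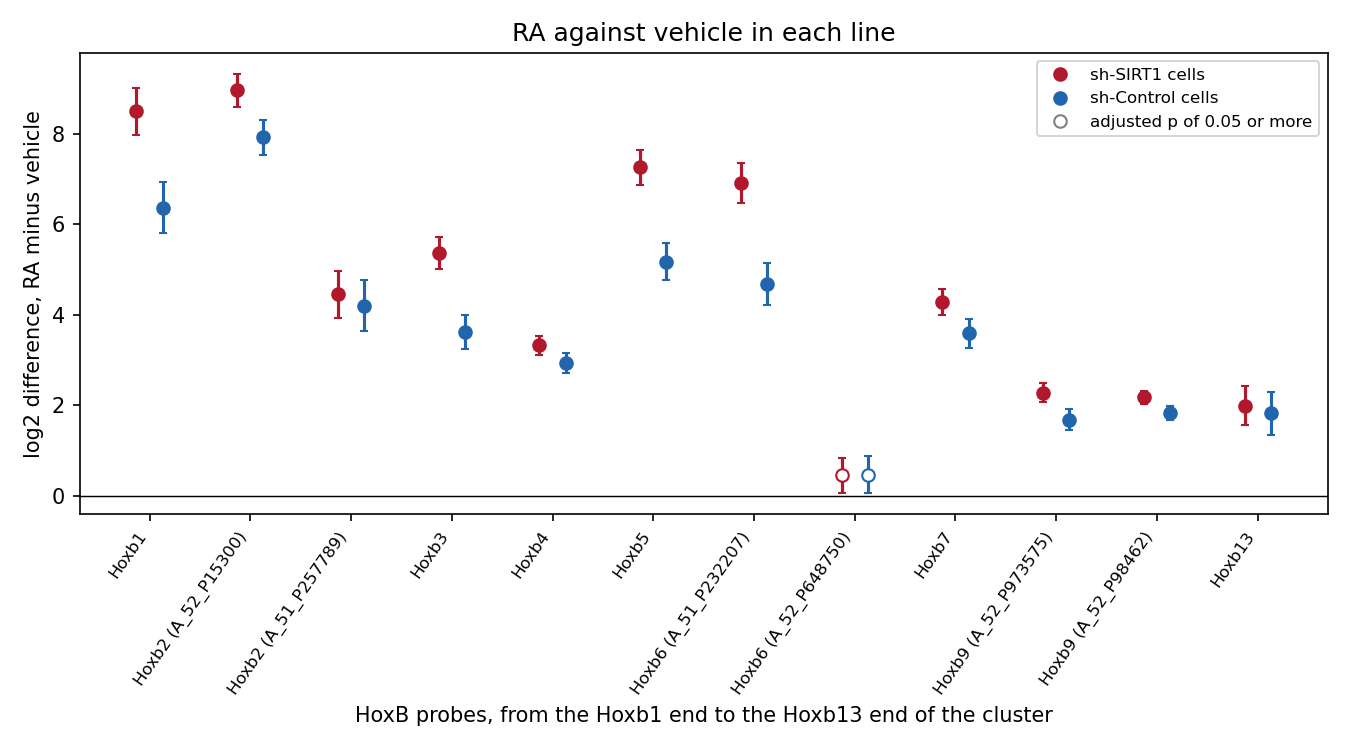
Log2 difference of RA minus vehicle with its SE for each tested HoxB probe, in cluster order, in sh-SIRT1 cells and in sh-Control cells; filled points were called by limma at an adjusted p under 0.05. The 11 called probes lie between 1.68 and 8.96, and Hoxb6 probe A_52_P648750 lies near 0.5 in both; for probes not well above background with vehicle the plotted value is the fitted difference and no bound.

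With array 1 alone for RA-treated sh-Control cells, all 11 probes were still called in that comparison, from 8.03 for Hoxb2 to 1.40 for Hoxb9 probe A_52_P973575. The size of the differences depended on the background correction and the offset added with it. With the normexp method and an offset of 50 in place of the scanner's processed signal, the median over the 12 probes was 2.36 in sh-SIRT1 cells and 1.47 in sh-Control cells. In that fit 11 and 10 probes were called, and the probe lost was Hoxb13 in sh-Control cells (1.07, limma adjusted p = 0.0748). An offset by itself shrinks log2 differences of dim probes, such as Hoxb1 at 3.5 to 4.7 intensity units with vehicle. The parts of offset and method were not told apart, here or in other normexp values.

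Under RA, most of the cluster was higher with the Sirt1 hairpin than with the control hairpin. Of the 12 probes, 9, for 8 of the 9 genes tested, were higher in RA-treated sh-SIRT1 cells than in RA-treated sh-Control cells and none was lower (limma, adjusted p under 0.05), against 8.36% of all probes called higher. In 7 of these 9, those for Hoxb3, Hoxb4, Hoxb5, Hoxb6, Hoxb7 and both for Hoxb9, all 6 RA-treated sh-SIRT1 arrays lay above all 4 RA-treated sh-Control arrays, against 6.19% of all probes (and 9.51% with all sh-SIRT1 arrays below). The median difference was 1.21, beside -0.04 over all probes.

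Hoxb5 was higher by 2.27 ± 0.35 (limma adjusted p = 0.000742, 4.83-fold) and Hoxb6, by probe A_51_P232207, by 2.22 ± 0.40 (adjusted p = 0.00174, 4.67-fold). Hoxb3 was higher by 1.80 ± 0.32 (limma adjusted p = 0.00173, 3.49-fold), Hoxb7 by 1.27 ± 0.26 (adjusted p = 0.00431, 2.41-fold) and Hoxb4 by 0.94 ± 0.19 (adjusted p = 0.00403, 1.92-fold). The 2 Hoxb9 probes differed by 1.15 each, with SEs of 0.20 and 0.13 and limma adjusted p-values of 0.00131 and 9.55e-05. Differences between genes were not tested, and their order changed with array 1 alone for RA-treated sh-Control cells.

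Hoxb1 and Hoxb2 were also called, at 1.77 ± 0.47 (limma adjusted p = 0.017) and 1.56 ± 0.33 (adjusted p = 0.00453), but their groups overlapped. In both, RA-treated sh-Control array 2 reached into the sh-SIRT1 range: it read 0.48 for Hoxb1, above 2 of the 6 sh-SIRT1 arrays, and 2.65 for Hoxb2, above 1 of them. That array was the highest of the 4 RA-treated sh-Control arrays for 7 of the 12 probes, array 1 for 2, array 3 for 2 and array 4 for 1. Among the RA-treated sh-SIRT1 arrays, array 1 was the lowest for 7 of the 12 and array 4 the highest for 8.

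Hoxb13 differed by 0.93 ± 0.40 and was not called (limma adjusted p = 0.118). With a replicate block within treatment, a fit that compares arrays of the same number, it was called at 0.73 (adjusted p = 0.0236). The reverse-strand Hoxb2 probe was higher by 0.88 ± 0.48 (limma adjusted p = 0.212) and was called without vehicle-treated sh-SIRT1 array 1 (adjusted p = 0.0118), an array that adds to the estimated spread only. Hoxb6 probe A_52_P648750 differed by 0.09 ± 0.35 (adjusted p = 0.878).

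**Figure D3:**
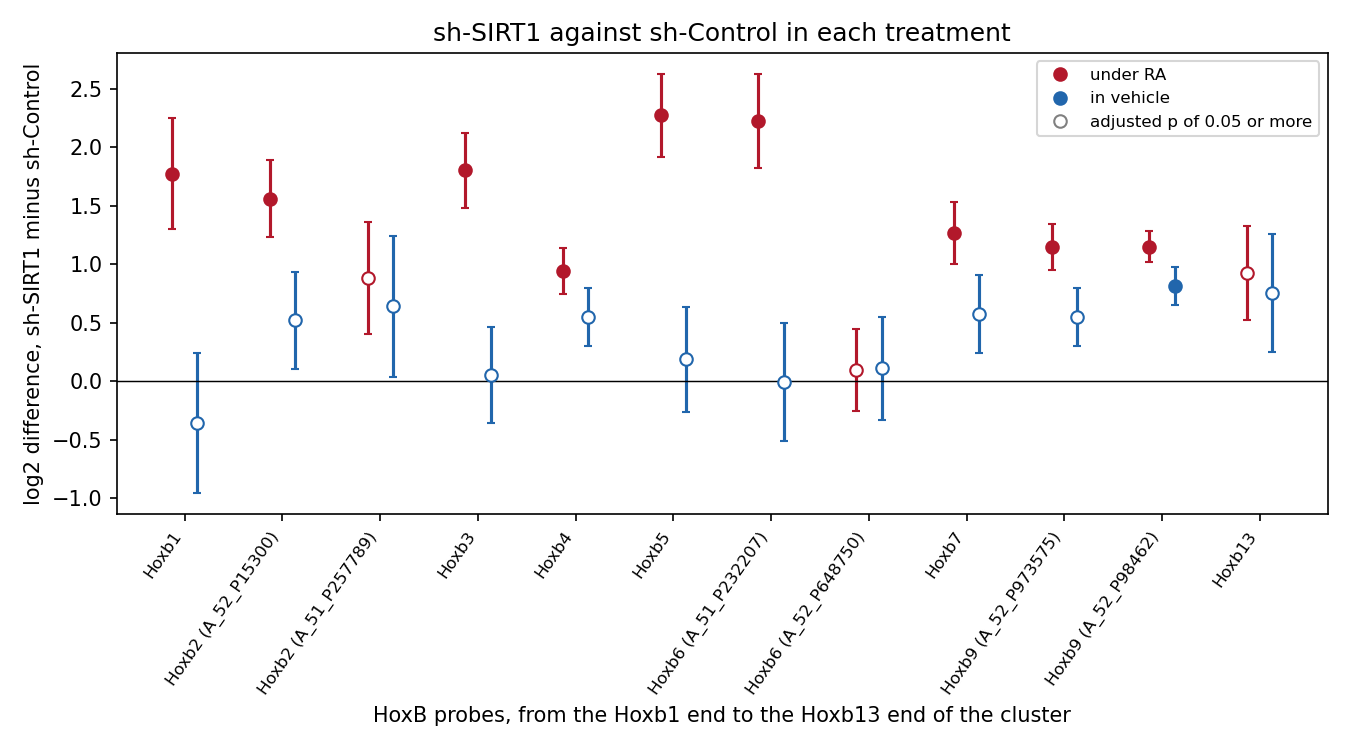
Log2 difference of sh-SIRT1 minus sh-Control with its SE for each tested HoxB probe in cluster order, under RA and with vehicle; filled points were called by limma at an adjusted p under 0.05. Under RA 9 of 12 are called and all 12 lie above 0, while with vehicle 1 Hoxb9 probe is called.

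Within the 3 slides that held both groups, each of the 9 called probes was higher in RA-treated sh-SIRT1 cells, by 1.38 to 2.95 for Hoxb1, 2.05 to 3.11 for Hoxb5, 1.80 to 3.41 for Hoxb6 and 0.46 to 1.80 for Hoxb7. With array 1 alone standing for RA-treated sh-Control cells, 7 of the 9 were called, and Hoxb4 at 0.69 (limma adjusted p = 0.123) and Hoxb7 at 0.44 (adjusted p = 0.45) were not, while Hoxb1 was at 3.29 (adjusted p = 0.00423). With normexp, 6 were called, and the 3 lost were Hoxb1 at 1.495 (limma adjusted p = 0.0524), Hoxb4 at 0.53 (adjusted p = 0.0975) and Hoxb9 probe A_52_P973575 at 0.68 (adjusted p = 0.09). Hoxb1 also lost its call in a fit of only the arrays compared (adjusted p = 0.0523).

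With vehicle, the hairpins differed in 1 HoxB probe. Hoxb9 probe A_52_P98462 was higher in sh-SIRT1 cells by 0.81 ± 0.17 (limma adjusted p = 0.00836, 1.76-fold, higher on all 3 arrays than on all 3 sh-Control arrays), where 4.36% of all probes were called higher, 4.05% lower and 8.41% in either direction. The difference was 0.58 and 1.02 within the 2 slides that held both groups, and was not called with normexp (0.58, limma adjusted p = 0.126). The other Hoxb9 probe read -3.86, -4.47 and -4.50 in sh-SIRT1 cells and -4.20, -5.26 and -5.02 in sh-Control cells, a difference of 0.55 ± 0.25 that was not called (adjusted p = 0.203). It was called with the replicate block (adjusted p = 0.0176), as was Hoxb13, at 0.75 ± 0.51 without the block (limma adjusted p = 0.409, higher on all 3 arrays) and adjusted p = 0.0458 with it. Without vehicle-treated sh-Control array 1, the Hoxb9 probe A_52_P973575 was called too, at 0.86 (adjusted p = 0.0236).

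Hoxb4 differed by 0.55 ± 0.25 with vehicle (limma adjusted p = 0.193) and Hoxb7 by 0.57. The 5 genes that no vehicle array measured by its main probe, Hoxb1, Hoxb2, Hoxb3, Hoxb5 and Hoxb6, allow no statement beyond a level under the detection limit. In 2 of the 12 probes all sh-SIRT1 arrays lay above all sh-Control arrays and in 1, Hoxb1 at background, all lay below, beside 18.3% and 16.9% of all probes. Median differences were 0.53 over the 12 probes and 0.00 over all probes, and with normexp the HoxB median was -0.07.

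Whether RA did more with the Sirt1 hairpin was tested as the difference of the 2 RA effects. No HoxB probe was called by limma (lowest adjusted p = 0.0526), 4 of 12 had an unadjusted p under 0.05, as had 21% of all probes, and 4.55% of all probes were called in either direction, 1.96% higher and 2.59% lower. The fitted differences were 2.08 ± 0.57 for Hoxb5 (limma adjusted p = 0.0526), 2.23 ± 0.64 for Hoxb6 probe A_51_P232207 (adjusted p = 0.0624), 1.75 ± 0.52 for Hoxb3 (adjusted p = 0.0684) and 2.13 ± 0.76 for Hoxb1 (adjusted p = 0.122). Those 4 genes were under the detection limit with vehicle, where the fitted values depend on the signal of dim spots. For genes measured on all vehicle arrays the differences were smaller, 0.69 for Hoxb7, 0.34 for Hoxb9 probe A_52_P98462 and 0.17 for Hoxb13, and none was called.

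This result turned on 1 array more than any other. Without RA-treated sh-Control array 2, 5 HoxB probes were called, Hoxb1 at 2.67 (limma adjusted p = 0.0277), Hoxb2 at 1.47 (adjusted p = 0.0351), Hoxb3 at 2.12 (adjusted p = 0.0141), Hoxb5 at 2.50 (adjusted p = 0.0101) and Hoxb6 at 2.72 (adjusted p = 0.0101). Without RA-treated sh-SIRT1 array 1, Hoxb3 and Hoxb5 were called, and without RA-treated sh-Control array 1, Hoxb6 was. With array 1 alone for that group, Hoxb1 was the probe called, at 3.65 (adjusted p = 0.0251), and with the replicate block Hoxb9 probe A_52_P973575 was, at 0.61 (adjusted p = 0.0437).

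Between Hoxb3 and Hoxb2, at chr11:96456727-96456786, the array carries a probe for TC1432492, a transcript cluster with no gene symbol in the files, listed on the forward strand.
TC1432492 probe: tattgtattctagacaagagctgtagattt
It read -2.27 to -1.33 with a median of -1.83 on RA-treated sh-SIRT1 arrays and -3.86, -2.73, -3.66 and -3.98 on RA-treated sh-Control arrays. On the 6 vehicle arrays it read -8.15 to -7.94 in sh-SIRT1 cells and -7.92 to -7.56 in sh-Control cells, none well above background. The RA groups did not overlap, and TC1432492 was higher in RA-treated sh-SIRT1 cells by 1.71 ± 0.23 (limma adjusted p = 0.00026, 3.27-fold). With array 1 alone for RA-treated sh-Control cells the difference was 2.01 (adjusted p = 0.00235). RA raised it at least 14.4-fold in sh-SIRT1 cells (adjusted p = 7.49e-10) and at least 3.6-fold in sh-Control cells (adjusted p = 6.99e-08).

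Beyond the cluster, differences with RA were mostly small. Of the 19 non-member probes between the outermost members or within 250 kb of them, 4 did not pass the filter, and the 2 for Ndp52, an autophagy receptor gene 266.8 kb from Hoxb1, rose most with RA apart from TC1432492. Probe A_51_P324524 of Ndp52 read 3.24 to 5.68 on RA-treated sh-SIRT1 arrays, 3.57 to 5.19 on RA-treated sh-Control arrays, -1.23 to 0.54 on vehicle-treated sh-SIRT1 arrays and -0.18 to 0.42 on vehicle-treated sh-Control arrays. RA raised it by 4.80 ± 0.59 (limma adjusted p = 1.07e-05) and 4.24 ± 0.64 (adjusted p = 0.000119) in cells with the Sirt1 and the control hairpin, and the hairpins differed under RA by 0.31 ± 0.54 (limma adjusted p = 0.732). Ttll6, a tubulin-modifying enzyme gene nearer to Hoxb13, differed with RA by 1.72 ± 0.75 (limma adjusted p = 0.0612) and 1.29 ± 0.81 (adjusted p = 0.206) in the same order. The probes of Igf2bp1, Snf8, Ube2z and Atp5g1 differed with RA by -0.68 to 0.68 in sh-SIRT1 cells and by -0.48 to 0.61 in sh-Control cells. Some of these were called: 1 Ube2z probe was higher, and probes of Snf8 and Igf2bp1 were lower, with either hairpin. Atp5g1 was lower in sh-SIRT1 cells (-0.68, limma adjusted p = 0.000144). The Ube2z calls were lost with normexp (limma adjusted p = 0.104 and 0.271 in sh-SIRT1 and sh-Control cells). Those of Igf2bp1 probe A_51_P497113 were lost with quantile scaling (0.37 and 0.106). Igf2bp1 probe A_52_P620742 was at -0.43 with RA in sh-Control cells (limma adjusted p = 0.0552), and gained a call with array 1 alone, at -0.81. The unnamed transcripts TC1542803 (-0.88, limma adjusted p = 0.00299) and TC1498165 (-0.50, adjusted p = 0.0031) were lower with RA in sh-Control cells, calls lost with array 1 alone (-0.74, adjusted p = 0.108, and -0.42, adjusted p = 0.0707). Under RA, Atp5g1 differed by -0.31 in sh-SIRT1 against sh-Control cells (SE 0.10, limma adjusted p = 0.0446), a call lost without any 1 of several arrays (adjusted p up to 0.142) and with array 1 alone for RA-treated sh-Control cells (-0.08, adjusted p = 0.772), and apart from TC1432492 no other neighbour was called.

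**Figure D4:**
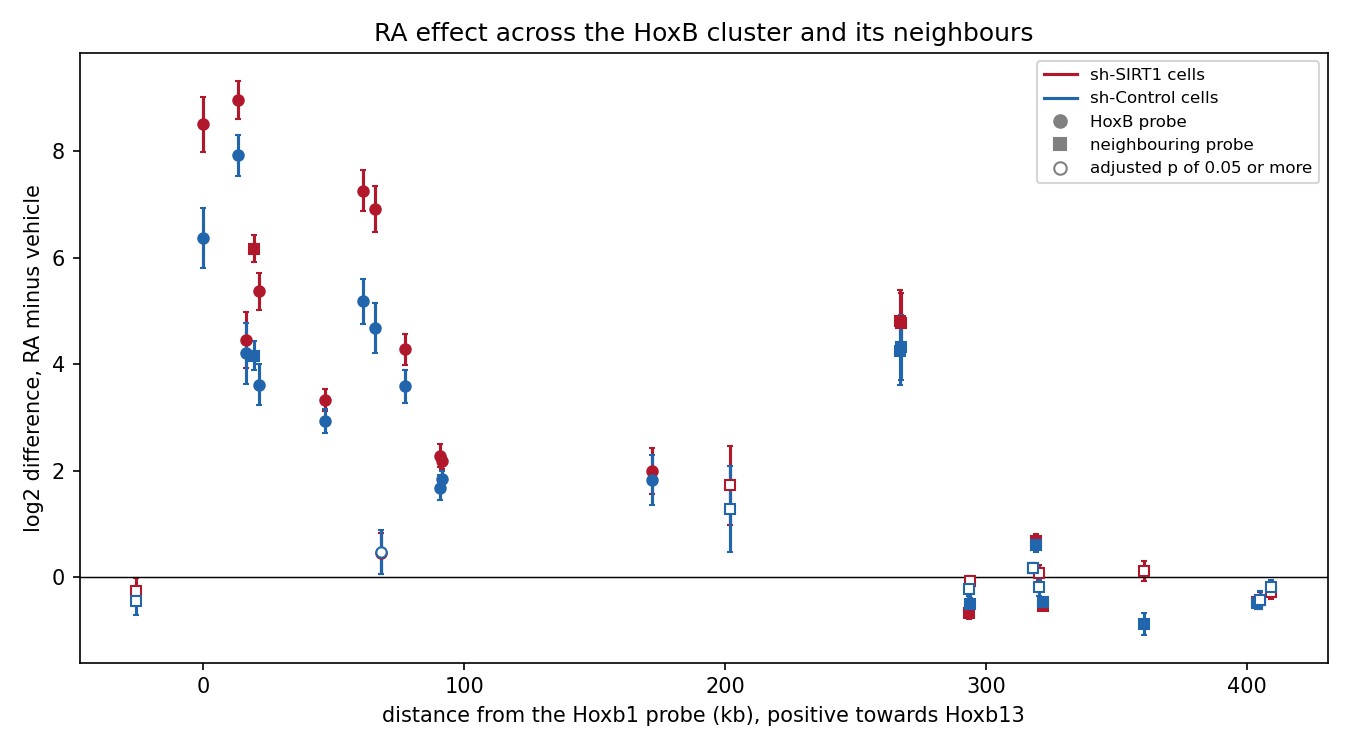
Log2 difference of RA minus vehicle against distance from the Hoxb1 probe (kb) for HoxB probes and their neighbours, in sh-SIRT1 and sh-Control cells; filled points were called by limma. All HoxB probes other than Hoxb6 probe A_52_P648750 lie at 1.68 or above, Hoxb13 at 1.99 and 1.82, the 2 Ndp52 probes at 266.8 and 267.2 kb lie at 4.24 to 4.80, and the probes farther out lie between -0.88 and 0.68.

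Other genes of the pathway were read from a list of 22, RA receptors, the RA-degrading enzyme Cyp26a1, and regulators and DNA-binding partners of Hoxb genes; 21 were tested and Cdx4 was not above the filter. With RA, 13 of 21 rose in sh-SIRT1 cells and 5 fell (median difference 1.39), beside 22.1% and 36.0% of all probes. In sh-Control cells 13 rose and 4 fell (median 1.02), beside 19.1% and 26.4% of all probes. On each vehicle array 16 to 18 of the 21 were well above background, and 20 or 21 on each RA array. Genes that passed the filter through RA groups alone had to be higher with RA. Cyp26a1 was at least 70.6-fold higher in sh-SIRT1 cells and at least 64.7-fold higher in sh-Control cells. Rarb, the RA-inducible receptor gene, was at least 59.9-fold higher in sh-SIRT1 cells and rose by 4.69 ± 0.37 in sh-Control cells. The caudal genes Cdx1 and Cdx2, activators of trunk Hox genes, rose in both, Cdx1 by 3.51 ± 0.26 and 3.02 ± 0.28. Egr2, the activator of Hoxb2 in the hindbrain, differed by -0.58 and -1.03 and was not called (limma adjusted p = 0.227 and 0.0616).

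Between hairpins under RA, 7 of the 21 were higher in sh-SIRT1 cells and none was lower (limma, median difference 0.23), where 8.36% of all probes were called higher and 12.5% lower. Among them were the homeodomain partners of Hox proteins Meis1 (2.22 ± 0.44, adjusted p = 0.00308), Meis2 (2.31 ± 0.45, adjusted p = 0.00285) and Meis3 (0.87 ± 0.20, adjusted p = 0.00739), the activator Cdx2 (1.40 ± 0.47, adjusted p = 0.0476), and Rarb (0.97 ± 0.31, adjusted p = 0.0384). The replicate block ended the calls of Meis3 (limma adjusted p = 0.054) and Cdx2 (adjusted p = 0.0934). Leaving out 1 array ended the Cdx2 call for most arrays (adjusted p up to 0.169) and the Rarb call for many (adjusted p up to 0.101). With array 1 alone for RA-treated sh-Control cells the calls of Meis1 (1.86, adjusted p = 0.0617), Meis3 (0.37, adjusted p = 0.321), Cdx2 (0.84, adjusted p = 0.381) and Rarb (1.55, adjusted p = 0.095) were lost, and that of Meis2 was not (1.88, adjusted p = 0.0295). Cyp26a1 was not called (-0.16 ± 0.55, limma adjusted p = 0.869). With vehicle, Meis1 was at least 1.78-fold higher in sh-SIRT1 cells (limma adjusted p = 0.0259), a call lost without vehicle-treated sh-SIRT1 array 1 (adjusted p = 0.11) or 2 (adjusted p = 0.0539), without vehicle-treated sh-Control array 2 (adjusted p = 0.0905) or 3 (adjusted p = 0.113), and with normexp (0.29, adjusted p = 0.999).

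Set beside the other Hox clusters, HoxB was not alone. Under RA, 7 of 12 HoxA, 4 of 5 HoxC and 4 of 8 HoxD probes were higher in sh-SIRT1 cells. Median differences were 1.24, 1.19 and 0.52, and 8.36% of all probes were called higher. The probes of Hoxc6, Hoxd4, Hoxd8 and Hoxd9 (both) and Hoxc10 probe A_51_P375754 passed the filter through RA-treated sh-SIRT1 cells alone. They were thus picked for signal in that group, and their higher level there is a description. The difference of the 2 RA effects was called higher in sh-SIRT1 cells for 3 HoxA, 1 HoxC and 3 HoxD probes. It was called lower for 1 HoxD probe and in neither direction for a HoxB probe, beside 1.96% of all probes called higher and 2.59% lower. For probes that passed through RA-treated sh-SIRT1 cells alone, the filter favours a larger RA effect there, and such a call is a description. The Hoxd12 probe passed through vehicle-treated sh-SIRT1 cells alone, which favours a lower RA effect in sh-SIRT1 cells. Whether the clusters differ in this was not tested. Among paralogues of Hoxb9, the hairpin difference under RA was 1.72 ± 0.39 for Hoxa9 (limma adjusted p = 0.00742), 3.45 ± 0.64 for Hoxc9 (adjusted p = 0.0022) and 1.87 ± 0.36 for Hoxd9 probe A_51_P430728 (adjusted p = 0.00275). With array 1 alone for RA-treated sh-Control cells, the calls of Hoxa9 (0.46, limma adjusted p = 0.447) and of that Hoxd9 probe (0.72, adjusted p = 0.0703) were lost. Hoxd1, a paralogue of Hoxb1, was not called between hairpins under RA and differed under RA by -0.52 ± 0.40 (limma adjusted p = 0.396).

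Markers of other cell types moved in the same comparisons, and their part in the HoxB results was not tested. Of 9 embryonic stem cell markers, 4 were lower in RA-treated sh-SIRT1 than in RA-treated sh-Control cells (Nanog, Sox2, Tdgf1 and Zfp42), as were 12.5% of all probes, with a mean level over the list of 4.07 to 4.60 on RA-treated sh-SIRT1 arrays and 4.46 to 4.98 on RA-treated sh-Control arrays, and 4.90 to 4.96 in vehicle-treated sh-SIRT1 cells and 4.94 to 5.10 in vehicle-treated sh-Control cells. Pou5f1, the defining gene of these cells, differed by 0.01 ± 0.19 under RA (limma adjusted p = 0.976). Of 5 neural progenitor markers tested, 3 (Sox1, Nes and Zic1) were higher in RA-treated sh-SIRT1 cells, as were 8.36% of all probes. The list had a mean level of -2.01 to -1.72 there, against -3.25 to -2.33 in RA-treated sh-Control cells. Of 7 mesoderm markers, 2 (Meox1 and Foxc2) were higher. The 10 primitive endoderm markers showed no call between hairpins under RA. With RA, 8 of 10 rose in sh-SIRT1 cells and 7 of 10 in sh-Control cells, as did 22.1% and 19.1% of all probes. The mean level of these markers reached 1.90 on RA-treated sh-Control array 1, the array fitted alone above. It was -0.28, -1.38 and -1.32 on arrays 2, 3 and 4 of that group, and at most 0.27 on RA-treated sh-SIRT1 arrays. Of 7 fibroblast markers tested, 6 rose with RA in sh-SIRT1 cells and 4 in sh-Control cells, beside 22.1% and 19.1% of all probes. None of the 7 was called between hairpins under RA. With vehicle, 2 of the 7 were lower in sh-SIRT1 than in sh-Control cells (limma), as were 4.05% of all probes. Of the mesoderm markers, 2 were higher and 1 was lower in that comparison, beside 4.36% and 4.05% of all probes. The embryonic stem cell, neural progenitor and primitive endoderm lists held no call there. On each vehicle array 5 or 6 of the 7 fibroblast markers were well above background. Markers that passed the filter through RA groups alone had to be higher with RA.

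The genes most like Hoxb1 and Hoxb9 in profile were sought among 13828 named genes by the root mean square difference of the 4 group means, each centred on its own mean. Nearest to Hoxb1 were Zfp503 (0.573), Hoxc9 (0.637), Pmp22 (0.661), Cyp26a1 (0.822) and Cryge (0.848). Nearest to Hoxb9 probe A_52_P98462 were Kynu (0.0935), Crygn (0.0998), Mab21l4 (0.115), Abcg4 (0.120) and Gpx8 (0.126). These distances rest on 4 group means, some of them at background, and order genes by shape only. Vehicle means (sh-SIRT1, then sh-Control) were -7.1 and -7.0 for Zfp503, -7.1 and -7.4 for Hoxc9 and -6.23 and -7.23 for Kynu. The dimmest probes well above background lay between -6.20 and -5.25.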

How the data were processed

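RNA of 16 samples was hybridised to 1-colour Agilent whole mouse genome arrays. The deposited scanner files hold the processed signal of each spot as an intensity, background-subtracted by Agilent Feature Extraction 9.5 per the submitters' processing notes (9.5.3.1 per the file headers); the deposited series matrix held the same intensity values. From these, log2 of the processed signal minus the array's 75th percentile was taken, control spots and spots with outlier flags were left out, and spots of a probe were averaged. A probe was tested if some group had it well above background on every array (26373 of 41174). Group means of all 16 arrays were compared with limma 3.58.1 (lmFit, eBayes, two-sided, R 4.3.3 with the package data.table, version 1.17.8), with Benjamini-Hochberg adjustment over all tested probes at 0.05. The fit was tested on simulated data. The number of arrays limits the precision.

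Samples were grouped by hairpin and treatment from their labels. Arrays of the same number deviated together from their group means (r = 0.341 to 0.502 with vehicle, 0.426 to 0.539 under RA). Arrays of unlike number were not set beside these, and the labels share numbers between hairpins without naming pairs, so pairing is not established. The reported differences, SEs and adjusted p-values therefore take no account of pairs unless the replicate block is named. The blocked fit, with arrays of the same number as pairs, was an alternative. Other alternatives were normexp background correction (offset 50), quantile and median scaling, no filter or a stricter one, 1 probe per gene, slide as a block, only the groups compared, and each array left out. Every HoxB probe was reported, with all probes within 250 kb, a list of regulators, other Hox genes, cell type markers and the 5 nearest profiles for Hoxb1 and Hoxb9. The members and lists were chosen with earlier results of these data known. Values of some list members and 1 probe sequence are not reported here.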

Additional observations from a re-analysis of the deposited data

Results flagged for a closer look

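The fitted effect of RA differed between sh-SIRT1 and sh-Control cells, by a test of the difference itself, in several probes near or related to the HoxB genes. Of these, 3 are described here, and other Hox probes are in the counts of the Hox clusters above. None of the 3 was well above background on a vehicle array, so the sizes rest on dim spots. The Hoxd9 and Hoxd8 probes passed the filter through RA-treated sh-SIRT1 cells alone, so a larger effect there is a description. For TC1432492, between Hoxb3 and Hoxb2, the RA effect was larger in sh-SIRT1 cells by 2.01 ± 0.37 on the log2 scale (limma adjusted p = 0.0109), with normexp 1.15 (adjusted p = 0.323) and with array 1 alone for RA-treated sh-Control cells 2.31 (adjusted p = 0.0113). For Hoxd9 probe A_51_P430728, a paralogue of Hoxb9, it was 2.20 ± 0.58 (limma adjusted p = 0.0472) and was lost when almost any 1 array was left out (adjusted p up to 0.114). It was 1.05 with array 1 alone (adjusted p = 0.0984) and 0.49 with normexp (adjusted p = 1), and 2 of the 4 RA-treated sh-Control arrays were well above background. For Hoxd8 it was 1.44 (limma adjusted p = 0.0212), with 1.31 in the fit with the replicate block (adjusted p = 0.0558), 1.14 with array 1 alone (adjusted p = 0.0764) and 0.39 with normexp (adjusted p = 1), and 1 of the 4 RA-treated sh-Control arrays was well above background. Among the HoxB probes, 24 groups of 4 or more arrays, which are RA groups only, were searched for a single array standing apart, and 0 were flagged. Vehicle groups, of 3 arrays each, were not searched, and with 4 arrays such a search is weak. It does not clear single arrays, since calls changed above when RA-treated sh-Control array 2 was left out.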

How the results depend on the processing

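Every alternative kept the direction of each called HoxB difference. HoxB probes called ranged over all alternatives from 6 to 10 for the hairpins under RA, 9 to 12 for RA in sh-SIRT1 cells and 9 to 12 in sh-Control cells (the 9 being all 9 probes tested with 1 probe per gene, and the 12 without a filter in sh-Control cells holding 1 lower call, of a Hoxb8 probe at background), 0 to 3 for the hairpins with vehicle and 0 to 5 for the difference of the RA effects. With vehicle, normexp gave 0 and the replicate block 3 calls, and leaving out an array 1 to 2. For the difference of the RA effects, the stricter filter, the replicate block and array 1 alone for RA-treated sh-Control cells gave 1 each, and leaving out an array 0 to 5. The cause was not tested. Besides the calls named above, the replicate block changed no other HoxB call. Over all probes, the hairpins with vehicle gave 2218 calls, against 309 with normexp, 1337 with slide as a fixed block, 4708 with the replicate block and 1033 to 3037 without an array. Under RA they gave 5514, against 1368 with normexp, 3644 with 1 probe per gene and 2912 with array 1 alone. RA gave 15318 in sh-SIRT1 cells and 12016 in sh-Control cells, against 9444 and 5808 with normexp. The difference of the RA effects gave 1201, against 21 with normexp, 499 with no filter, 657 with 1 probe per gene, 128 with slide as a fixed block, 2608 with the replicate block, 449 with array 1 alone and 339 to 2912 without an array. With median scaling, the share of calls that were higher was 73.3% for the hairpins with vehicle (51.8% in the reported fit), 22.5% and 28.6% for RA in sh-SIRT1 and sh-Control cells (38% and 42%) and 26.4% for the difference of the RA effects (43.1%), and medians over all probes became 0.14, -0.44, -0.29 and -0.18. Without a filter the share for RA in sh-Control cells was 32.1%, and for the difference of the RA effects it was 61.9% with normexp and 62.5% with slide as a fixed block. Sign changes were all in uncalled probes. With vehicle, normexp gave -0.14 for Hoxb3, -0.072 for Hoxb4, -0.20 for Hoxb5, and -0.12 and -0.064 for Hoxb2 probes A_52_P15300 and A_51_P257789; slide as a fixed block gave -0.14 for Hoxb3; quantile and median scaling gave 0.15 and 0.13 for Hoxb6 probe A_51_P232207. Without an array, vehicle values ran from -0.21 to 0.19 for Hoxb3, -0.33 to 0.20 for Hoxb6 probe A_51_P232207, -0.47 to 0.51 for Hoxb6 probe A_52_P648750, -0.095 to 0.45 for Hoxb5 and -0.39 to 1.20 for Hoxb2 probe A_51_P257789. Under RA, Hoxb6 probe A_52_P648750 was -0.38 with array 1 alone and -0.035 to 0.25 without an array. For the difference of the RA effects, Hoxb7 was -0.14 with array 1 alone, Hoxb13 -0.028 with the replicate block and -0.27 to 0.45 without an array, Hoxb2 probe A_51_P257789 -0.18 with quantile scaling and -0.32 to 1.27 without an array, and Hoxb6 probe A_52_P648750 0.20 with slide as a fixed block, 0.11 with the replicate block and -0.41 to 0.57 without an array.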
